A study of Mus musculus with 6 samples.

Results

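The genes described here encode the potassium, sodium and pacemaker channels that shape the electrical impulse of the heart, with their auxiliary subunits. Members were the protein-coding genes whose symbol began with Kcn, was Scn followed by a number and a or b, or was one of the Hcn genes, and 112 of the 54532 genes in the table met the rule. Of these, 63 had enough counts to be tested, and the 112 together took 0.149% to 0.17% of the counts of a library. RNA from the left ventricle of male mice was sequenced after poly-A selection, 4 weeks after aortic banding (AB), a narrowing of the aorta that loads the ventricle with pressure. Mice were 8 to 10 weeks old at surgery. HINT2-TG mice (TG, 3 libraries, genotype label HINT2CTG-Myh6Cre) carried a HINT2 transgene under the CAG promoter that tamoxifen-activated Cre, driven by the cardiomyocyte promoter Myh6, switched on, and NTG mice (3 libraries, labelled C57BL/6J) did not carry it. All 6 libraries came from banded hearts, so no library here shows the ventricle without AB. The NTG label names no Cre, and the sources used here do not say whether NTG mice received tamoxifen. Effects of Cre or tamoxifen therefore cannot be told apart from those of the transgene. Hearts of 3 mice per group gave the RNA, so the libraries are taken as separate animals, although the labels do not number the animals.

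In a cardiomyocyte, sodium channels (INa) carry the upstroke of the action potential, and potassium channels return the membrane to rest. The transient outward current (Ito) gives the first notch, the delayed rectifiers (IKslow, IKr and IKs) end the plateau, and the inward rectifier (IK1) holds the resting potential. Mouse ventricle repolarizes fast and relies on Ito and IKslow, whereas IKr and IKs are known mainly from larger mammals. Further channels open when ATP is low (IKATP), when acetylcholine acts through a G protein (IKACh), or at rest (two-pore channels). Pacemaker channels (If) open on hyperpolarization and are best known from the sinoatrial node. Loss of Ito and of its subunits is a well-known feature of the hypertrophied ventricle.

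Libraries held 14863568 to 17581220 counts. Hint2, the mouse gene of the same name as the transgene, had 12 counts in NTG 1, against 545 and 559 in NTG 2 and NTG 3 and 793, 828 and 859 in TG 1, TG 2 and TG 3. TG libraries lay above all NTG libraries (exact two-sided permutation p = 0.1, the smallest that 3 against 3 libraries allow), but the library labelled NTG 1 stood far below the other two of its group. The genotype of this library is therefore in doubt, and so is every NTG mean and TG against NTG value that includes it. How many transgene reads are counted at the mouse gene was not tested. On the first principal component of the channel genes, which held 70.6% of their variance, NTG 1 lay at 1.45, beside TG 2 at 1.44 and apart from NTG 2 at -7.21 and NTG 3 at -2.94. It was kept as labelled, and values without it are given beside many of the genes described. Marker levels of several cell types also differed between libraries. Summed levels of 9 ventricular cardiomyocyte markers were 36679, 21638 and 29590 CPM (counts scaled to library size, with TMM) in NTG 1, 2 and 3 and 43953, 35358 and 42206 in TG, with 9 of 9 log2 fold changes positive, 3 of them at an unadjusted p under 0.05 and 0 called by DESeq2. NTG 1 lay above TG 2, so these sums overlapped. Summed levels of 8 fibroblast markers were 4227, 9662 and 6110 CPM in NTG and 2387, 3582 and 2174 CPM in TG, with 8 of 8 negative and 3 called by DESeq2. Macrophage markers had 7 of 7 negative, with 0 called by DESeq2 and sums that overlapped, at 493 to 986 CPM in NTG and 406 to 560 CPM in TG. Of the erythroid markers 5 of 5 were at an unadjusted p under 0.05 on the lower side, 4 of them called by DESeq2. The erythroid sum ran from 1310 to 2245 CPM in NTG and from 762 to 908 CPM in TG. Mitochondrial transcripts took 13.4% to 19.2% of counts in NTG and 16.0% to 21.5% in TG. In such bulk RNA, fewer cells of a type and less RNA per cell cannot be told apart, and the part of cell make-up and mitochondrial share in the channel results was not tested.

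No channel gene passed the main test. edgeR called a gene when its adjusted p was under 0.05 and its log2 fold change beyond 0.5, and it called 0 of 63 channel genes higher or lower in TG, as it called 0% of the 14774 genes tested in either direction (smallest adjusted p 0.196). At an unadjusted p under 0.05, 16 channel genes (25.4%) were on the higher side in TG against 8.83% of all genes tested, and 6 (9.52%) on the lower side against 9.76%. The share on the lower side lay near the background. Both the channel share and the share of all genes moved with the libraries used. On the higher side 5 channel genes (7.69%, against 4.98% of all genes) were left without TG 1, 8 (12.3%, against 5.15%) without NTG 3, 10 (16.1%, against 5.35%) without TG 3 and 11 (17.7%, against 5.08%) without NTG 2. Without NTG 1 there were 21 (32.3%, against 13.7%). For 13 channel genes every TG library lay above every NTG library (20.6%, against 11.2% of all genes) and for 5 every TG library lay below (7.94%, against 12.3%). The median log2 fold change of channel genes was 0.19, with 41 above 0 and 22 below, and that of all genes was -0.0081. Scaling by library size alone shifted the median of all genes to -0.093 and that of the channel genes to 0.12, and the shares of all genes at an unadjusted p under 0.05 to 6.19% higher and 12.5% lower.

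DESeq2, run on the same counts as an alternative, called 2 channel genes higher (3.17%, against 1.54% of all genes) and 5 lower (7.94%, against 2.4%). These were Kcna1 and Kcnh2 on the higher side, and Kcne4, Kcnh1, Kcnj15, Kcnma1 and Scn7a on the lower. Leaving out NTG 2, TG 1 or TG 3 ended all 7 of these calls, and leaving out NTG 3 left 2. Without NTG 1, edgeR tested 65 channel genes and called 7 higher (10.8%, against 2.67% of all genes) and 4 lower (6.15%, against 2.85%). The higher genes were Hcn4, Kcng2, Kcnh2, Kcnj12, Kcnj3, Kcnj5 and Kcnn2, and the lower ones Kcnh1, Kcnj15, Kcnma1 and Scn7a. Kcnh1, called by both fits, had 5 to 8 counts in each TG library and enough counts to be tested only through NTG. limma-voom called 0 channel genes, with 16 (25.4%, against 9.45% of all genes) on the higher and 6 (9.52%, against 9.4%) on the lower side at an unadjusted p under 0.05. The genes are taken below by the current they carry, with CPM in the order of libraries 1, 2 and 3.

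**Figure D1:**
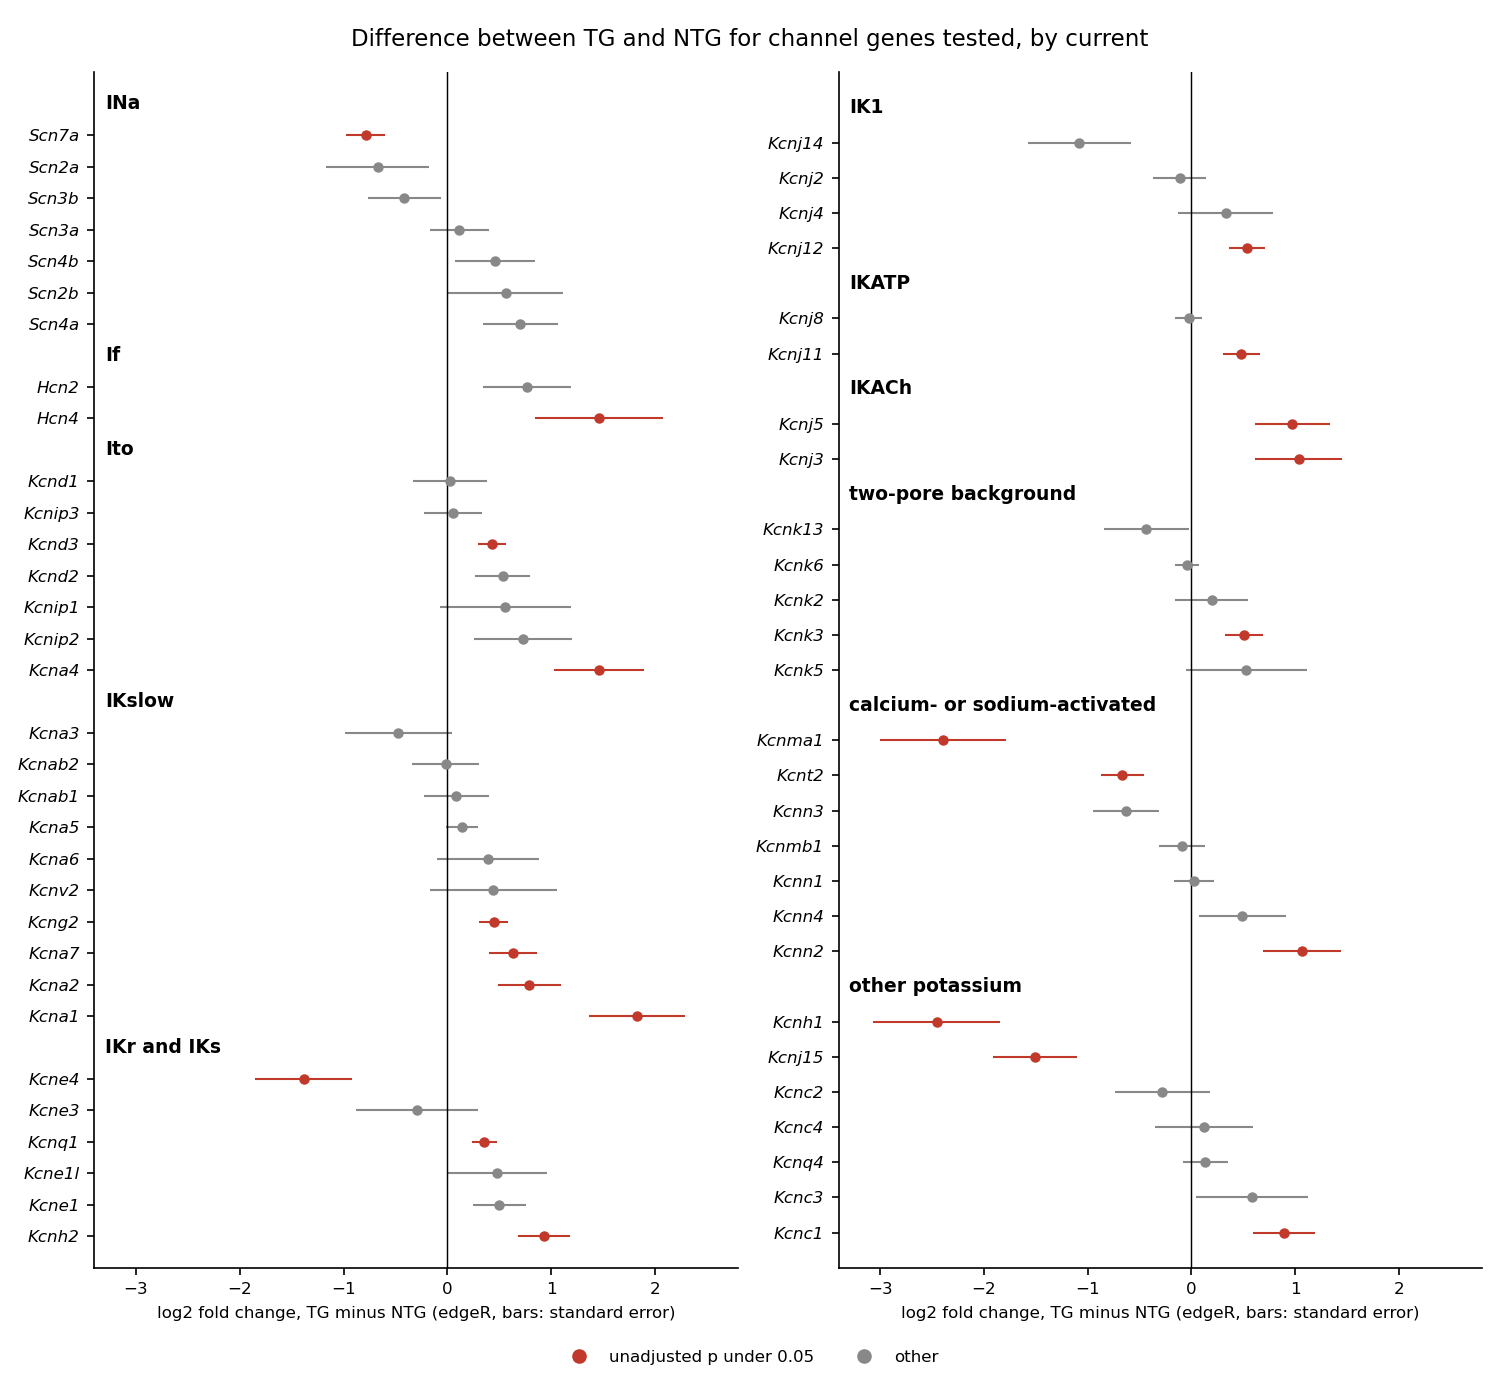
Points show the edgeR log2 fold change (TG minus NTG) of 59 of the 63 channel genes tested, grouped by current, with bars of 1 standard error. Genes at an unadjusted p under 0.05 are red, 16 to the right of 0 and 6 to the left. All 7 tested genes of Ito lie to the right, with Kcnd1, Kcnip1 and Kcnip3 within 1 standard error of 0.

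Levels can be compared between genes only per length, as CPM per kilobase of gene length. On this scale the highest means given here over the 6 libraries were 45.3 for Kcnk3, 40.6 for Kcng2 and 38.9 for Kcna5. Kcnk3 encodes the two-pore channel TASK-1, Kcng2 a silent modifier of Kv2 pores and Kcna5 the Kv1.5 pore of IKslow. Next came Kcnip2 at 29.4, Kcnj11 at 26.2 and Kcnj8 at 25.3, all means in CPM per kilobase. Library ranges of each of these genes overlapped those of the next in the order, so their order is not resolved by the spread. In all, 8 genes lay at 10 or more, 24 from 1 to under 10 CPM per kilobase and 31 below 1. The only break among the first 20 was between Kcnk6, whose libraries lay between 3.54 and 4.23, and Kcnn1, with 2.04 to 3.497 CPM per kilobase.

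**Figure D2:**
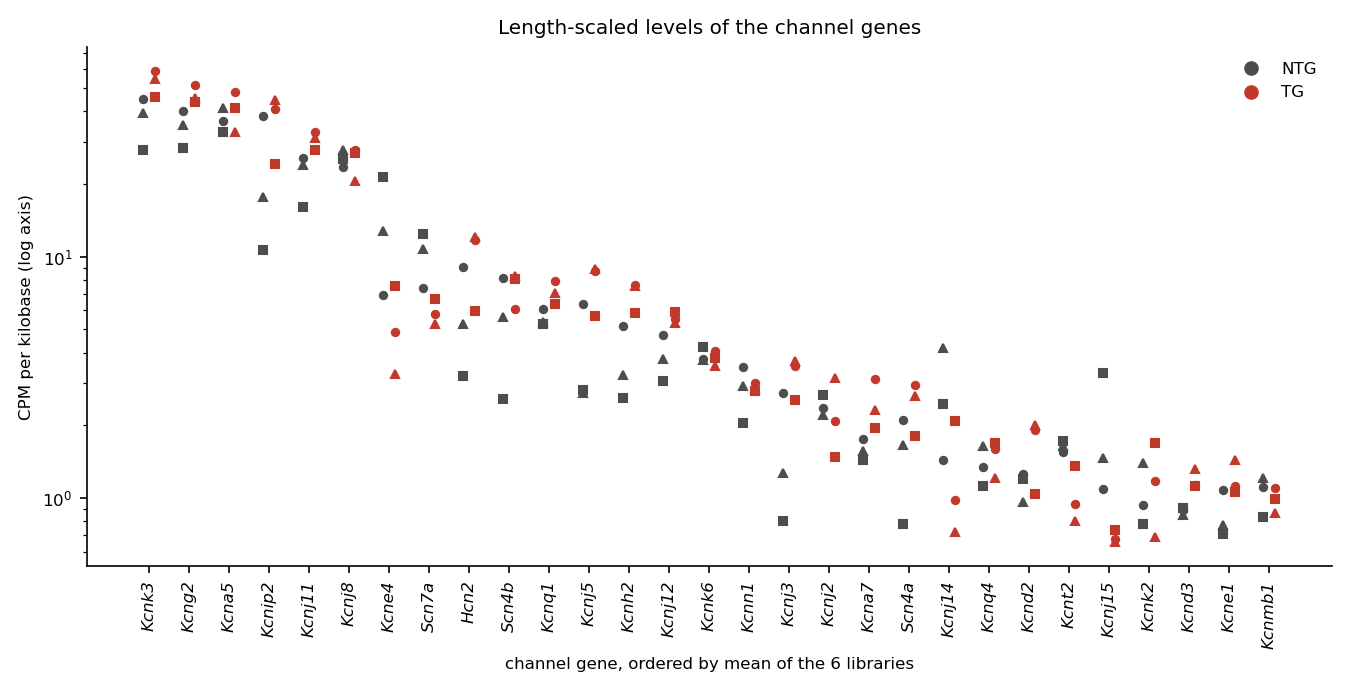
Length-scaled levels (CPM per kilobase, log axis) of 29 channel genes with a mean of at least 1, ordered by the mean of the 6 libraries, with NTG grey and TG red and the marker giving the library. Ranges of neighbours overlap along most of the order, and the libraries of Kcnip2, Kcne4 and Kcnj15 spread widely within NTG.

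The 49 channel genes under the filter included 10 with no count in any library, and 43 had fewer than 10 counts in every library. The largest count among the 49 was 17. They included the sensory sodium channels Scn9a, Scn10a and Scn11a, the pacemaker channel Hcn3, the IKr subunit Kcne2, the neuronal G protein-gated pores Kcnj6 and Kcnj9, and 9 of 14 two-pore channels. Kcnk1, the TWIK-1 two-pore channel, had 1 to 5 counts per library. These genes were not tested.

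Of the sodium channel genes, 9 of 14 were tested. They had a median log2 fold change of -0.23, with 0 at an unadjusted p under 0.05 on the higher side and 1 on the lower. Scn4a, first described in skeletal muscle, was at 14.9, 5.52 and 11.7 CPM in NTG and 20.7, 12.7 and 18.7 CPM in TG, and TG 2 lay below NTG 1 (log2 fold change 0.70 ± 0.36, edgeR adjusted p = 0.334). Without NTG 1 the log2 fold change was 1.01. Scn4b, a beta subunit that shapes the resurgent current, ranged from 12.8 to 40.8 CPM within NTG and from 30.2 to 41.5 CPM in TG. That spread within NTG covered nearly the whole TG range, and the log2 fold change was 0.46 with all libraries, 0.87 without NTG 1 and 0.12 without NTG 2.

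Scn7a, a sodium sensor related to the sodium channels but not gated by voltage in the same way, stood at 54.6, 90.8 and 79.1 CPM in NTG and 42.5, 49.2 and 38.6 CPM in TG. All TG libraries lay below all NTG libraries, and the level in NTG was 1.72 times that in TG (log2 fold change -0.78 ± 0.19, edgeR adjusted p = 0.196, DESeq2 adjusted p = 0.0123). Without NTG 1 the log2 fold change was -0.97, with an edgeR adjusted p of 0.0149. The gene lies at chr2:66673425-66784914 on the minus strand (GRCm38). The 250 bases before its RefSeq start, which lies 4 bases inside the gene as given above, are chr2:66784911-66785160 (GRCm38.p6). They are shown beside those of Kcnj15, an inward rectifier described with the remaining potassium channels, because both genes were below NTG in every TG library. Capitals mark CpG pairs, read 5′ to 3′ on the gene's strand.
Scn7a: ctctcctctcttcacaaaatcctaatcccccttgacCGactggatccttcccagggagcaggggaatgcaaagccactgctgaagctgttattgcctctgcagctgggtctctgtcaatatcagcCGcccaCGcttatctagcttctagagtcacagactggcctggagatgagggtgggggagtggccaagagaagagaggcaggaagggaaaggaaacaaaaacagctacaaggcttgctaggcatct
Kcnj15: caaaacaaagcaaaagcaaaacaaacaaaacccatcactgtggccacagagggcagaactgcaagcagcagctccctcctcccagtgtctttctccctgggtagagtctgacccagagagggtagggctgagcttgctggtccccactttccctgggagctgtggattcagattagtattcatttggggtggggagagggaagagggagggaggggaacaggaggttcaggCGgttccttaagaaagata
The Scn7a stretch held 3 CpG pairs and that of Kcnj15 (chr16:95257308-95257557, plus strand) 1. GATAA, the core of the GATA factor motif, was found once in Scn7a, on the opposite strand, and not in Kcnj15. On either strand it was present in 14.4% of 10780 tested genes' promoters of this length and in 5 of 44 channel gene promoters. Channel gene promoters held a median of 8.5 CpG pairs, against 15 in all, at a median GC content of 60.6% and 59.6%. Of the 63 tested channel genes 44 had a listed promoter, 21 of them within 10 bases of the gene start. For channel genes the listed promoter nearest the gene start was taken, and for all genes the first listed. The 2 sides were thus chosen differently, and no difference between them is read from these shares and medians.

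The pacemaker channels were carried almost wholly by Hcn2, which made up 88.2% to 95.8% of the length-scaled Hcn RNA in each library. Hcn2, the main ventricular pacemaker channel, was at 29.1, 10.2 and 16.8 CPM in NTG and 37.4, 19.05 and 38.5 CPM in TG (log2 fold change 0.77 ± 0.42, adjusted p = 0.368). NTG 1 alone overlapped TG, and the log2 fold change was 1.23 without NTG 1 and 0.47 without NTG 2. Hcn4, the main channel of the sinoatrial node, was at 4.57, 0.69 and 1.504 CPM in NTG and 7.93, 4.43 and 5.99 CPM in TG. TG 2 lay just below NTG 1, and the level in TG was 2.76 times that in NTG (log2 fold change 1.46 ± 0.62, edgeR adjusted p = 0.266). Without NTG 1 the log2 fold change of Hcn4 was 2.48, with an edgeR adjusted p of 0.024, and without NTG 2 it was 1.02. The share of Hcn4 in the length-scaled Hcn RNA was 7.42%, 3.39% and 4.39% in NTG and 9.95%, 10.7% and 7.47% in TG. These shares did not overlap, although TG 3 lay only just above NTG 1.

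Markers of atrial tissue varied between libraries and are given beside Hcn4 and the IKACh genes, which atria also express. Myl7, the atrial myosin light chain, was at 19.5, 0.16 and 0 CPM in NTG and 1.59, 7.67 and 64.4 CPM in TG. NTG 1 had the most Myl7 in NTG and also the highest level of Hcn4, Kcnj3 and Kcnj5 there, and TG 3, with the most Myl7 of all, had the highest Kcnj3 and Kcnj5. TG 1, with the highest Hcn4, had little Myl7. Its Kcnj3 (18.5 CPM) and Kcnj5 (41.0 CPM) nevertheless lay close to those of TG 3 (19.3 and 41.5 CPM). Of the 6 tested atrial markers 5 had a positive log2 fold change and 1 a negative one, with a median of 1.19. Myl4 and Sln were, like Myl7, highest in TG 3 and next highest in NTG 1, with Myl4 at 77.8 and 39.6 CPM and Sln at 24.8 and 8.33 CPM. Stard10 lay higher in every TG library than in NTG (log2 fold change 1.19, DESeq2 adjusted p = 0.0228), as did Nr2f1, at 3.55 to 4.34 CPM in NTG and 4.66 to 5.31 CPM in TG. Dkk3 lay lower in every TG library (-0.75). The part of atrial tissue in these results was not tested. The summed level of 8 atrial markers ran from 76.1 to 158 CPM in NTG and from 51.5 to 251 CPM in TG, and Bmp10 was under the filter. Tbx3, a repressor that marks the conduction system, was at 15.8, 8.82 and 13.8 CPM in NTG and 47.0, 25.8 and 31.3 CPM in TG (log2 fold change 1.44). Of the 5 tested conduction system markers, Tbx3 was the only one at an unadjusted p under 0.05 on the higher side, and Etv1 and Shox2 were on the lower.

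**Figure D3:**
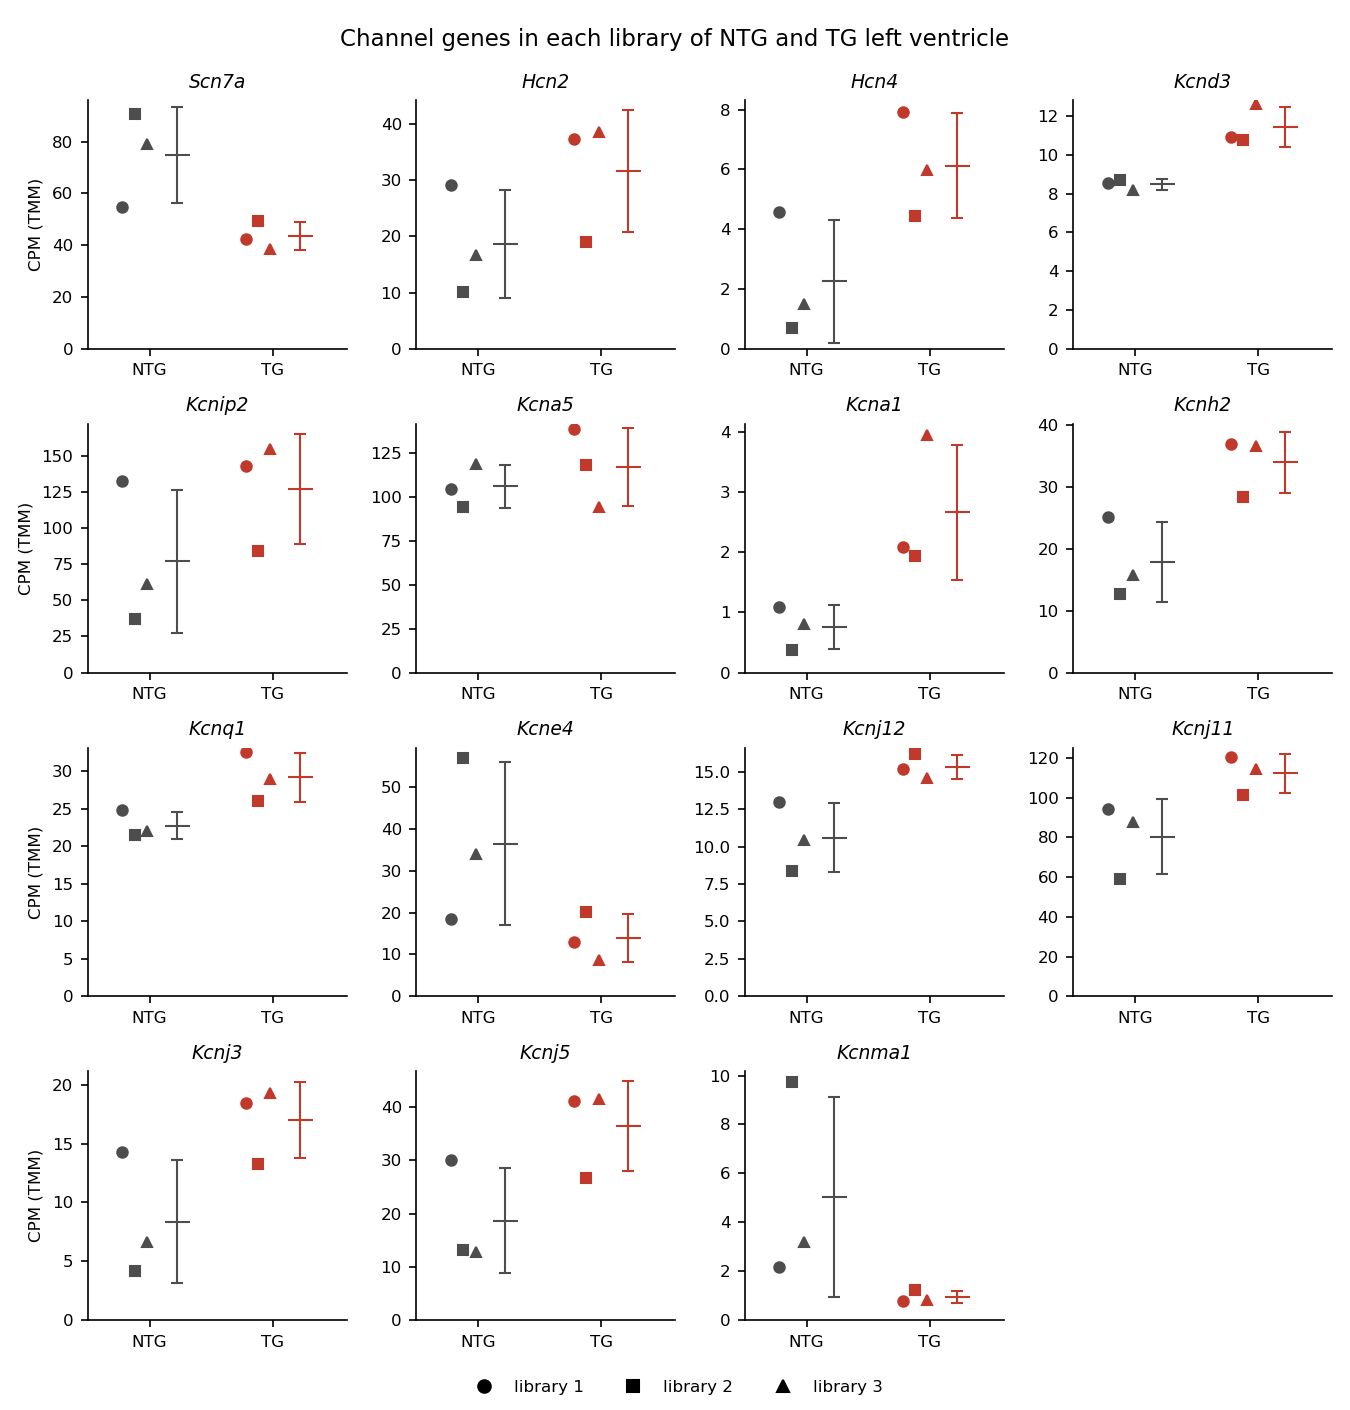
CPM (TMM) of 15 channel genes in each library, NTG grey and TG red, with the marker giving the library number and the bar the group mean ± SD (3 libraries each). Of the NTG libraries, NTG 1 lies nearest TG for Hcn4, Kcnip2, Kcnh2, Kcnj3 and Kcnj5, and TG lies above NTG without overlap for Kcnd3, Kcnq1, Kcnj12 and Kcnj11.

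All 7 tested genes of the transient outward current had a positive log2 fold change, with a median of 0.53, and 2 had an unadjusted p under 0.05. Kcnd1 (0.02 ± 0.36) and Kcnip3 (0.06 ± 0.28) lay near 0, and Kcnip1, at 4 to 19 counts, was at 0.56 ± 0.63. Without NTG 1 Kcnd1 was at -0.014. Kcnd3, a pore of the fast component (Kv4.3), was at 8.53, 8.71 and 8.16 CPM in NTG and 10.9, 10.7 and 12.6 CPM in TG. The groups did not overlap and the NTG libraries were close together (log2 fold change 0.43 ± 0.14, adjusted p = 0.205). Kcna4, the Kv1.4 pore of the slow component, was low throughout, at 1.09, 0.74 and 0.52 CPM in NTG and 1.95, 3.13 and 1.36 CPM in TG (log2 fold change 1.46 ± 0.43, adjusted p = 0.197). Kcnd2, the Kv4.2 pore, overlapped, at 6.49, 6.16 and 4.98 CPM in NTG and 9.88, 5.34 and 10.3 CPM in TG. Kcnip2, the calcium sensor that brings Kv4 pores to the membrane, was at 132.6, 37.1 and 61.15 CPM in NTG and 142.8, 83.9 and 154.8 CPM in TG. NTG 1 lay among the TG libraries, so the groups overlapped (log2 fold change 0.73 ± 0.47, adjusted p = 0.432). The log2 fold change was 1.37 without NTG 1 and 0.39 without NTG 2. Summed over Kcnd1, Kcnd2, Kcnd3 and Kcna4, pore RNA was 2.08 to 2.58 CPM per kilobase in NTG and 3.02 to 3.85 in TG, without overlap.

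Kcna5, a main IKslow pore of mouse ventricle, overlapped between the groups. It was at 104.4, 94.3 and 118 CPM in NTG and 138, 118 and 93.8 CPM in TG (log2 fold change 0.14 ± 0.15, adjusted p = 0.641). The 11 tested genes of this group also took in other Kv1 pores, modifiers of Kv2 pores and auxiliary subunits. Of the 11, 4 were at an unadjusted p under 0.05, all on the higher side, and the median was 0.39. Kcna5 was not among the 4. Kcng2, which forms channels only together with Kv2 pores, was at 119, 84.0 and 105 CPM in NTG and 153, 131 and 136 CPM in TG. All TG libraries lay above NTG (log2 fold change 0.45 ± 0.14, adjusted p = 0.204), and without NTG 1 the edgeR adjusted p was 0.0466. The other 3 were Kv1 pores at low level. Kcna1 (Kv1.1), better known from nerve, was at 1.09, 0.37 and 0.81 CPM in NTG and 2.09, 1.93 and 3.95 CPM in TG (log2 fold change 1.83 ± 0.47, edgeR adjusted p = 0.196, DESeq2 adjusted p = 0.0218). Kcna2 and Kcna7 had log2 fold changes of 0.79 and 0.63, also without overlap. Kcna1 lies between Kcna5 and Kcna6 on chromosome 6, 105.0 kb from the first and 61.9 kb from the second, and the log2 fold changes of those neighbours were 0.14 and 0.39. Of Schwann cell and neuron markers, Sox10 had a log2 fold change of 1.97, Tubb3 one of -1.07, and Th and Prph were under the filter.

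IKr and IKs gave 2 genes on the higher side and 1 on the lower of 6 tested, with a median of 0.42. Kcnh2, the pore of IKr (ERG), was at 25.1, 12.6 and 15.7 CPM in NTG and 36.9, 28.3 and 36.6 CPM in TG. Every TG library lay above every NTG library, and TG was 1.91 times NTG (log2 fold change 0.93 ± 0.25, edgeR adjusted p = 0.196, DESeq2 adjusted p = 0.0189). Without NTG 1 the log2 fold change was 1.26, with an edgeR adjusted p of 0.0162, and without NTG 2 it was 0.73. Kcnq1, the pore of IKs, was at 24.8, 21.5 and 21.98 CPM in NTG and 32.5, 26.0 and 28.9 CPM in TG, without overlap (log2 fold change 0.36 ± 0.12, adjusted p = 0.211). Exons of Kcnq1 share 121 bases with its antisense transcript Kcnq1ot1, and whether counting used strand is not given in the sources used here. Of the length-scaled RNA of both pores, Kcnh2 made up 46.1%, 33.2% and 37.7% in NTG and 48.9%, 47.9% and 51.7% in TG. Kcne1, the partner of Kcnq1 in IKs, had a log2 fold change of 0.50 ± 0.26 and overlapped.

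Kcne4, a single-pass subunit that inhibits Kcnq1 channels, had a negative log2 fold change, at 18.4, 56.9 and 34.1 CPM in NTG and 13.0, 20.2 and 8.70 CPM in TG. TG 2 lay above NTG 1, and NTG was 2.61 times TG (log2 fold change -1.39 ± 0.46, edgeR adjusted p = 0.217, DESeq2 adjusted p = 0.0225). The log2 fold change was -1.71 without NTG 1 and -0.91 without NTG 2. The length-scaled level of Kcne4 relative to Kcnq1 was 2.54 ± 1.48 (SD, n = 3) in NTG and 0.758 ± 0.385 in TG. NTG 2, with the highest Kcne4 level, also had the highest summed level of fibroblast markers.

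Among the inward rectifiers of IK1, Kcnj2 and Kcnj12 are the main pores of ventricle. Kcnj2 (Kir2.1) was at 12.9, 14.5 and 11.98 CPM in NTG and 11.3, 8.07 and 17.1 CPM in TG, with the widest spread in TG (log2 fold change -0.11 ± 0.26). Kcnj12 (Kir2.2) was at 13.0, 8.39 and 10.4 CPM in NTG and 15.15, 16.2 and 14.6 CPM in TG, all above NTG (log2 fold change 0.53 ± 0.17, adjusted p = 0.207). Without NTG 1 its log2 fold change was 0.70, with an edgeR adjusted p of 0.0439. The share of Kcnj12 among the 4 pores, on the length-scaled scale, was 51.9%, 36.4% and 35.4% in NTG and 60.7%, 58.0% and 55.2% in TG, and the groups did not overlap. Kcnj14 (Kir2.4) took 15.8%, 29.4% and 39.0% in NTG and 10.8%, 20.6% and 7.58% in TG, with overlap. The summed level of the 4 pores was 8.37 to 10.7 CPM per kilobase in NTG and 9.07 to 10.2 in TG, so the sum overlapped where the share of Kcnj12 did not. A test of this difference between genes was not run.

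**Figure D4:**
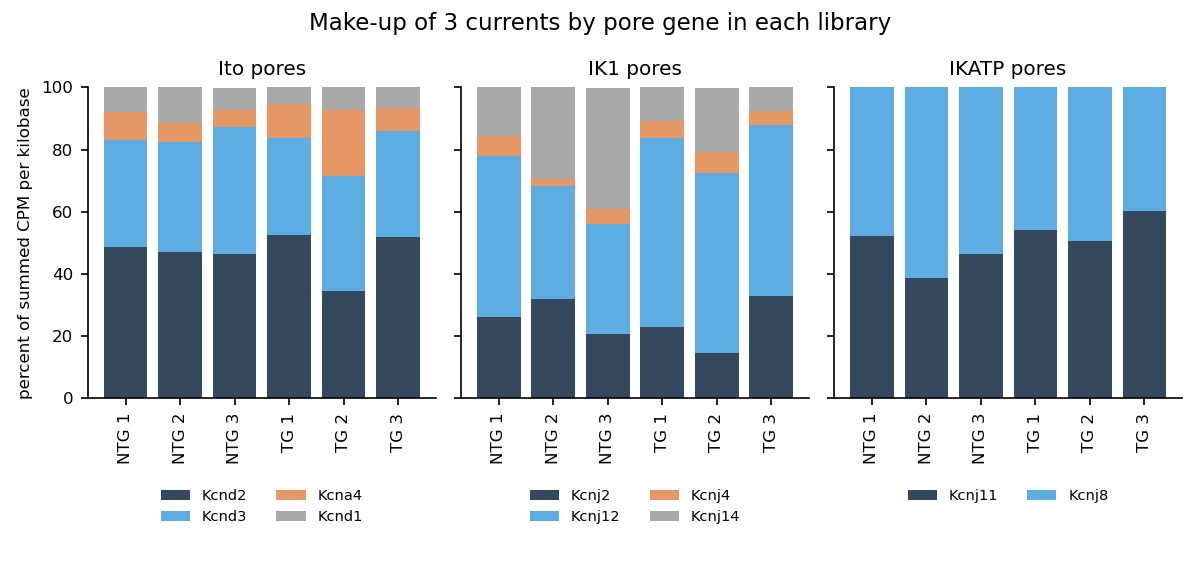
Stacked bars give the percent of summed CPM per kilobase that each pore gene took in each library, for the Ito, IK1 and IKATP pores. Kcnj12 takes 55.2% to 60.7% of the IK1 pores in TG and 35.4% to 51.9% in NTG.

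Of the pores of the ATP-sensitive channel, 1 of 2 was at an unadjusted p under 0.05, on the higher side. Kcnj11 (Kir6.2), the pore of the ventricular sarcolemma, was at 94.4, 58.9 and 87.8 CPM in NTG and 121, 102 and 115 CPM in TG, without overlap (log2 fold change 0.48 ± 0.17, adjusted p = 0.221). Without NTG 2 its log2 fold change was 0.30. Kcnj8 (Kir6.1), known from vascular smooth muscle and pericytes, was at 60.0, 64.9 and 70.5 CPM in NTG and 70.75, 68.8 and 52.5 CPM in TG (log2 fold change -0.03 ± 0.13). Its sulphonylurea receptor partner Abcc9 had a log2 fold change of 0.22. Of 8 smooth muscle and pericyte markers 5 had a positive log2 fold change and 3 a negative one, with 3 at an unadjusted p under 0.05, all on the higher side, and a median of 0.13. They ran from -0.61 for Tagln to 0.75 for Cnn1, with the pericyte marker Rgs5 at 0.04.

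Both tested genes of IKACh, which slows the heart under vagal tone, were at an unadjusted p under 0.05 on the higher side. Kcnj3 (GIRK1) was at 14.3, 4.20 and 6.65 CPM in NTG and 18.5, 13.3 and 19.3 CPM in TG (log2 fold change 1.04 ± 0.42, adjusted p = 0.255). Kcnj5 (GIRK4), which assembles with it, was at 29.97, 13.2 and 12.8 CPM in NTG and 41.0, 26.7 and 41.5 CPM in TG (log2 fold change 0.97 ± 0.36, adjusted p = 0.231). In both, NTG 1 lay above TG 2 and the other TG libraries lay above all NTG libraries. Without NTG 1 the log2 fold changes were 1.65 and 1.49, with edgeR adjusted p of 0.0219 and 0.0203. The lowest values with 1 library left out were 0.71 for Kcnj3, without NTG 2, and 0.76 for Kcnj5, without NTG 3. On the length-scaled scale Kcnj5 made up 68.1% to 77.8% of the pair in NTG and 69.1% to 71.2% in TG. The stretches of 250 bases before both genes are shown because their products assemble into 1 channel (RefSeq, GRCm38.p6, Kcnj3 at chr2:55435720-55435969 on the plus strand, Kcnj5 at chr9:32344345-32344594 on the minus strand), with CpG pairs in capitals.
Kcnj3: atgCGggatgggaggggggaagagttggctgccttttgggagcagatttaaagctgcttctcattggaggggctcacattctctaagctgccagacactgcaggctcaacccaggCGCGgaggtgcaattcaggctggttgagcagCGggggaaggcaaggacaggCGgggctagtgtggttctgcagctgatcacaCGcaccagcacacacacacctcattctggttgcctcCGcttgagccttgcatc
Kcnj5: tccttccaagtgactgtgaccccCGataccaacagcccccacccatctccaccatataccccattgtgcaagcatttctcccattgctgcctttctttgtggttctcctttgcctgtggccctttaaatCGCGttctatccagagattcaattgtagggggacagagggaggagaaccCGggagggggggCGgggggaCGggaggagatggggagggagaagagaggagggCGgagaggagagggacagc
Both held 7 CpG pairs, at a GC content of 58.4% and 58.0%. The RefSeq start used for Kcnj5 lies 6 bases inside its annotated gene. Neither held GATAA or TATAAA, and neither held AGGTGTGA, the T-box motif, which was present on either strand in 0.677% of the promoters of all genes tested. CACGTG, the E-box, was in neither, in 4 of 44 channel gene promoters and in 8.36% of all. Promoters of channel genes and of all genes were chosen differently, as described with Scn7a. A match or its absence describes only these letters in this window.

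Of the two-pore background channels, Kcnk3 (TASK-1) was at 179, 110.3 and 157 CPM in NTG and 235, 182 and 217 CPM in TG. The lowest TG library lay just above the highest NTG library (log2 fold change 0.51 ± 0.19, adjusted p = 0.224), and without NTG 2 the log2 fold change was 0.33. Kcnk2 (TREK-1), a stretch-activated channel, was at 4.64, 3.88 and 6.88 CPM in NTG and 5.84, 8.36 and 3.39 CPM in TG, with no separation (log2 fold change 0.19 ± 0.36).

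Channels opened by calcium or sodium gave values on both sides, with 1 of 7 at an unadjusted p under 0.05 on the higher side and 2 on the lower. Kcnn2 (SK2), a small-conductance calcium-activated channel, was at 6.14, 1.91 and 3.76 CPM in NTG and 9.23, 7.28 and 8.03 CPM in TG. The groups did not overlap (log2 fold change 1.07 ± 0.37, adjusted p = 0.217), and without NTG 1 the log2 fold change was 1.53 with an edgeR adjusted p of 0.034, against 0.73 without NTG 2. Kcnma1, the large-conductance BK pore, was at 2.18, 9.72 and 3.18 CPM in NTG and 0.79, 1.25 and 0.80 CPM in TG. Every TG library lay below NTG, and NTG was 5.26 times TG (log2 fold change -2.40 ± 0.61, edgeR adjusted p = 0.196, DESeq2 adjusted p = 0.00428). NTG 2 had the highest level by far, and the edgeR log2 fold change was -1.49 without it and -2.75 without NTG 1. Kcnmb1, its beta subunit in smooth muscle, had a log2 fold change of -0.09 ± 0.22. Kcnt2 (Slick), a sodium-activated channel, was at 10.7, 11.9 and 11.3 CPM in NTG and 6.49, 9.32 and 5.56 CPM in TG, without overlap (log2 fold change -0.66 ± 0.20, adjusted p = 0.204).

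Among the remaining potassium channels, Kcnj15 (Kir4.2), an inward rectifier best known from epithelia, was at 6.89, 20.8 and 9.26 CPM in NTG and 4.26, 4.66 and 4.14 CPM in TG. TG libraries were close together and all below NTG (log2 fold change -1.51 ± 0.41, edgeR adjusted p = 0.196, DESeq2 adjusted p = 0.0094). NTG 2 was the highest, and without it the log2 fold change was -0.89, against -1.79 without NTG 1. Kcnh1 (EAG1) was at 0.68, 3.03 and 3.24 CPM in NTG and 0.50, 0.45 and 0.31 CPM in TG. NTG 1 lay nearer the TG libraries than NTG 2 and NTG 3 did (log2 fold change -2.45 ± 0.61, edgeR adjusted p = 0.196, DESeq2 adjusted p = 0.0142). Without NTG 1 the log2 fold change was -2.88. TG libraries held 7, 8 and 5 counts and NTG libraries 10, 57 and 56, so Kcnh1 was tested only because of its NTG counts. Its calls and fold changes are therefore no support for a difference. Kcnc1 (Kv3.1) was at 2.05, 1.17 and 2.26 CPM in NTG and 3.75, 3.24 and 3.15 CPM in TG, without overlap (log2 fold change 0.89 ± 0.30, adjusted p = 0.212).

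Genes that work with these channels were counted in the same way, with log2 fold changes given for those named. Of 14 tested partners and scaffolds, 1 was at an unadjusted p under 0.05 on the higher side and 0 on the lower, with a median log2 fold change of 0.23. Of 10 calcium and chloride channels 2 were on the higher side, Trpm4, a sodium-permeable calcium-activated channel, at 0.48, and Cacna1h, a T-type calcium channel, at 0.999. Cacna1h was at 1.55 without NTG 1, with an edgeR adjusted p of 0.0249, and at 0.70 without NTG 2. Of 9 pumps and exchangers 1 was on the higher side, and the sodium pump subunit Atp1b3 and the sodium-calcium exchanger Slc8a1 on the lower at -0.31 and -0.24. Gap junction genes gave 0 of 3. Of 12 transcription factors known to act on channel genes, 3 were on the higher side (Tbx3 at 1.44, Hopx at 1.47 and Nkx2-5 at 0.33) and 3 on the lower (Hey2 at -0.59, Shox2 at -0.90 and Etv1 at -0.36). DESeq2 called Tbx3 and Hopx higher and 0 of the 12 lower. Without NTG 1 Hopx was at 2.10, with an edgeR adjusted p of 0.0264.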

How the data were processed

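The deposited table holds raw read counts per gene, with authors' FPKM beside them that were not used here. The authors cleaned the reads, aligned them and counted with featureCounts, and the submitters' processing notes list HISAT2 and the human build GRCh38. The gene identifiers and positions are those of mouse, and 108 of 112 channel genes have the same position in GENCODE M21 (GRCm38). The strand setting and the treatment of multi-mapped reads are not given in the sources used here. The fold changes and p-values the authors deposited were not used.

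Counts of all genes were fitted with edgeR 4.0.16 in R 4.3.3 (TMM scaling, filterByExpr, quasi-likelihood test, robust dispersion, no covariate), and p-values were adjusted by Benjamini-Hochberg over the 14774 genes that passed the filter. CPM used TMM library sizes, and per-length levels divided CPM by the gene length in the table, in kilobases. DESeq2 1.42.0 and limma-voom (limma 3.58.1) were alternatives. In all, 17 alternatives were planned and 7 were added after seeing the data. The scripts were tested on simulated data. Depth was 14863568 to 17581220 counts per library, which limits genes of few counts, and there were 3 libraries per group.

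The members, gene lists and tests were chosen with earlier results of these data known. Named genes were the pores and main subunits of each current, further members at an unadjusted p under 0.05 or called by DESeq2, Hint2, and the 3 partner genes with the smallest p in each list. Abcc9, Scn4a, Kcnj14 and the marker genes named were chosen after their values were seen. Some genes are not reported here or drawn in the figures, although they stay in the fits and counts.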

Additional observations from a re-analysis of the deposited data

How the results depend on the processing

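The main fit called 0 genes, and RLE or upper quartile scaling, a minimum of 10 counts in every library, protein-coding genes alone, limma-voom and non-robust dispersion left the channel genes at 0 calls. With all 26858 genes that had a count kept, however low, 116 genes passed on the higher side and 116 on the lower. These held 1 and 1 of 102 channel genes. DESeq2 called 228 and 355 of 14774 genes, of them 2 and 5 of 63 channel genes. Scaling by library size alone gave a channel median of 0.12. Same-numbered libraries correlated at 0.081, 0.173 and -0.252, so the numbers did not pair them. A fit with the replicate block called 84 of 14774 genes higher and 147 lower, of them 1 and 1 of 63 channel genes (Kcnh2 and Kcnma1). Leaving out each library in turn gave 0 to 404 genes called higher and 0 to 432 lower, 0 to 7 and 0 to 4 channel genes, 5 to 21 and 6 to 10 channel genes at an unadjusted p under 0.05 (7.69% to 32.3% and 9.23% to 15.4%, against 4.98% to 13.7% and 5.37% to 13.3% of all genes), a channel median of 0.12 to 0.29, and a Hint2 log2 fold change of 0.77 to 1.79. The highest calls came without NTG 1, with 7 and 4 of 65 channel genes (10.8% and 6.15%, against 2.67% and 2.85% of all genes). In that fit the Hint2 edgeR adjusted p was 0.0212. In DESeq2, with each library left out (added after seeing the data), genes called higher and lower were 896 and 877 without NTG 1, 47 and 76 without NTG 2, 40 and 129 without NTG 3, 103 and 76 without TG 1, 292 and 486 without TG 2, and 29 and 67 without TG 3. These held 15 and 7 of 65 channel genes without NTG 1, where 15136 genes were tested in all. They held 4 and 7 of 64 without TG 2 (15062 tested in all), 0 and 2 of 65 without NTG 3 (15127 in all), and 0 otherwise. At an unadjusted p under 0.05 there were 8 to 22 and 6 to 10 channel genes (12.3% to 33.8% and 9.23% to 15.4%, against 4.71% to 13.4% and 4.63% to 12% of all genes). Channel medians were 0.117, 0.268 and 0.301 without NTG 2, TG 2 and TG 3, and Hint2 was at 0.78 without NTG 1. Without NTG 1 and TG 3 together (also added), 7 and 3 genes were called, 16 channel genes (25.8%, against 10.7% of all genes) had an unadjusted p under 0.05 on the higher side and 10 (16.1%, against 10.8%) on the lower, and the median was 0.35, with Hint2 at 0.76. Of 1169 values for single named genes, 1088 kept direction and side of the threshold, 68 passed it newly and 13 changed sign. The 13 were all from genes near 0: Kcnj8 (0.034, 0.098, 0.042, 0.104 and 0.041), Kcnmb1 (0.024, 0.032 and 0.027), Kcna5 (-0.00033), Kcnj2 (0.117 and 0.127) and Kcnk2 (-0.157 and -0.147), each without 1 or 2 libraries. In edgeR fits with 1 library left out, the extremes on the other side of 0 were -0.105 for Kcnj8, -0.238 for Kcnmb1, 0.276 for Kcna5, -0.442 for Kcnj2 and 0.47 for Kcnk2, and Kcnj2 was at -0.456 without NTG 1 and TG 3. The cause of the other changes was not tested.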

Other observations

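Kcnq1ot1, the antisense transcript that shares exon bases with Kcnq1 and is no protein-coding gene, was at 4.71, 4.94 and 4.34 CPM in NTG and 4.26, 3.52 and 5.31 CPM in TG, with a log2 fold change of -0.097 (edgeR adjusted p = 0.831). The groups overlapped.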
